A study of Mus musculus with 4 samples.

Results

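Very long chromatin interactions were defined as those whose anchors started at least 800 kb apart, in a deposited list of H3K27ac HiChIP interactions from mouse brain. The rule took 2164 of 99041 listed interactions (2.18%), all within a chromosome and spread over the 19 autosomes. HiChIP ligates DNA ends that meet in the nucleus and enriches the joined fragments with an antibody, here against the acetylated histone H3 mark of active promoters and enhancers. The labels describe 4 libraries: 2 from cultured wild-type mouse neural stem cells, also called neural progenitor cells and grown with EGF and basic FGF, and 2 from tumor cells isolated from brain tumor tissue labelled YAP-M tumor, whose genotype is given as YAP-M fusion. The sample titles say ChIP-seq, while the protocol and the design text say HiChIP. The same stem cell culture text stands beside the tumor libraries. Neither age, the promoter driving the fusion, the cells that received it nor any pooling of animals is given in the sources used. The list names no library, and the letters YM in its name are read here as the fusion. It holds the positions of anchor pairs of 10 kb, with no read count, score or sample column, so depth is unknown and no value has a replicate error. No list from the stem cells was analysed here, and no test was run. Neither could the tumor label be checked against expression, since the list holds none.

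As background, an enhancer can act on a promoter far along the same chromosome when the intervening DNA folds so that both meet. Cohesin extrudes loops of chromatin until it meets CTCF at the borders of contact domains, and genes of developmental regulators often lie in wide, gene-poor domains that hold many distal enhancers. A promoter that contacts a long run of neighbouring bins draws a stripe on a contact map, whereas a pair of short segments that meet draws a compact block. Distance alone chose the interactions described here, so their length is no result, and genes, spans and clustering are given as descriptions of this list.

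An anchor was counted at a gene when its bin came within 2.5 kb of either outermost coordinate of a protein-coding gene (a gene end) in RefSeq for GRCm38.p6, the assembly of mm10. Where RefSeq gave an annotated start with its strand, which it did for 16457 of 20665 autosomal coding genes, starts were counted as well. Promoters are printed for genes whose start bins carried many very long interactions, because these bins are the fixed side of the contacts described next. Each runs from 250 bases before to 50 bases after an annotated start, 5′ to 3′ along the gene, as RefSeq gives it. Capitals mark matches on either strand to GGAATG, the core recognised by TEAD factors, to TGANTCA, the AP-1 site, or, in Lacc1 only, to a shortened core of the CTCF motif, searched after the data were seen. They come from chr16:23981234-23981533 (Bcl6, minus strand), chr2:45110228-45110527 (Zeb2, minus), chr13:28953650-28953949 (Sox4, minus), chr1:42695518-42695817 (Pou3f3, plus) and chr14:77036568-77036867 (Lacc1, minus).
Bcl6: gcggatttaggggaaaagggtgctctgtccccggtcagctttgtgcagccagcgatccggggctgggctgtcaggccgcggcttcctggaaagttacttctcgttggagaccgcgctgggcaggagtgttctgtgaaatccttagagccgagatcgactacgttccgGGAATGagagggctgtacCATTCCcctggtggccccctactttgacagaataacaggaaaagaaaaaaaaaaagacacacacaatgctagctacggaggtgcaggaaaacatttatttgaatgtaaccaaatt
Zeb2: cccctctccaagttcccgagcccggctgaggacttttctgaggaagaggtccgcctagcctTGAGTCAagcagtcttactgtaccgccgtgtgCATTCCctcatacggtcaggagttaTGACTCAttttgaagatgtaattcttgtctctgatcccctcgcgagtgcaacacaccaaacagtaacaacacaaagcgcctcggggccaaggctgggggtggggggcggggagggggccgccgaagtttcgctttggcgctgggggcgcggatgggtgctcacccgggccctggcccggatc
Sox4: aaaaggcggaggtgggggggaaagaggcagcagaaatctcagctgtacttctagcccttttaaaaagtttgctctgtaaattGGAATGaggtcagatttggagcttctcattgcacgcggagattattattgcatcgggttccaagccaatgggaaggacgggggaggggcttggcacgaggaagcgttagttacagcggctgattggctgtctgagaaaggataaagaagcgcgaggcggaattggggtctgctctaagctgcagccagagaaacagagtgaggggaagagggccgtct
Pou3f3: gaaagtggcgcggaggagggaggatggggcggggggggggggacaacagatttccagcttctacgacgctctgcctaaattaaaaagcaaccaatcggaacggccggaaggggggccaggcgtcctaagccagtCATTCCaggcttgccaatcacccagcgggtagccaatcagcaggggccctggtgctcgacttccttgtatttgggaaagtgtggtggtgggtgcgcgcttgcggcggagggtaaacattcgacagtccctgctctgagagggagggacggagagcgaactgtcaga
Lacc1: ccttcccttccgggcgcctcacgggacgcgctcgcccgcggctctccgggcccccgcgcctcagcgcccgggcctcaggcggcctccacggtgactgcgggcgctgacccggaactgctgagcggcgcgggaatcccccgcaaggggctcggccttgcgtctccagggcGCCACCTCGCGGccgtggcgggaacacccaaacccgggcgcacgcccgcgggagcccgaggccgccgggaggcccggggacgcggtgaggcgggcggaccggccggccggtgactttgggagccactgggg
The promoters printed were picked because they held a match, from among several starts for Bcl6 and Zeb2. The other Bcl6 start and the other Zeb2 starts in these anchors held none, nor did the starts of Jun, Cited2 and Zc3h12a.

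Over all promoters in very long anchors, the TEAD and AP-1 letters were no more frequent than over all promoters. A TEAD core lay in 91 of 722 coding promoters whose start bin had a very long interaction (12.6%), in 12.1% of 10891 whose bin had shorter interactions alone, in 15.04% of 8472 in no anchor, and in 13.4% of all 20085. The AP-1 site lay in 3.60%, 5.66%, 9.15% and 7.06% of these. The shortened CTCF core lay in 2.08%, 1.85%, 0.862% and 1.44%, and a longer form of it in 0, 2, 0 and 2 promoters. The palindromic NFI site, TTGGC and GCCAA at 5 bases from each other, lay in 0 of the 722 promoters and in 7 of all 20085. The median number of CpG dinucleotides was 21 of 300 bases in very long anchors, 19 with shorter interactions alone and 5 in no anchor, and the median GC content was 61.3%, 60% and 50.7%. Promoters at very long and at shorter anchors were thus close in CpG content, and both stood apart from promoters outside the list.

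The number of interactions per 10 kb step was level around the limit and fell beyond it. There were 116 at 790 kb, just outside the limit, 127 at 800 kb, just inside it, 136 at 860 kb and 59 at 1000 kb, the longest distance listed. The median distance was 880 kb, with quartiles of 840 and 930 kb. The list ends at 1000 kb, so very long means 800 to 1000 kb here.

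Very long interactions joined start sites at both anchors more often than shorter bands of the list did, by these counts. With annotated starts, 302 of 2164 had a start at both anchors (13.96%, exact 95% interval 12.5 to 15.5%), against 10.6% at 600 to 790 kb, 8.96% at 400 to 590 kb, 8.11% at 200 to 390 kb and 9.28% at 20 to 190 kb. Neither anchor lay at a start in 49.0% (46.9 to 51.2%), against 52.5 to 57.8% in the shorter bands. With adjacent interactions merged into contacts within each band, the share with both was 23.7% at 800 kb and above and 16.7 to 18.6% below. With gene ends in place of starts the bands were closer: 427 interactions (19.7%, 18.1 to 21.5%) had both anchors at coding-gene ends, against 15.5 to 19.3% in the 4 shorter bands. In all, 928 (42.9%) had 1 anchor at an end and 809 (37.4%) had none. Intervals are exact (Clopper-Pearson), cover counting error only, and are too narrow because neighbouring interactions share anchors.

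**Figure D1:**
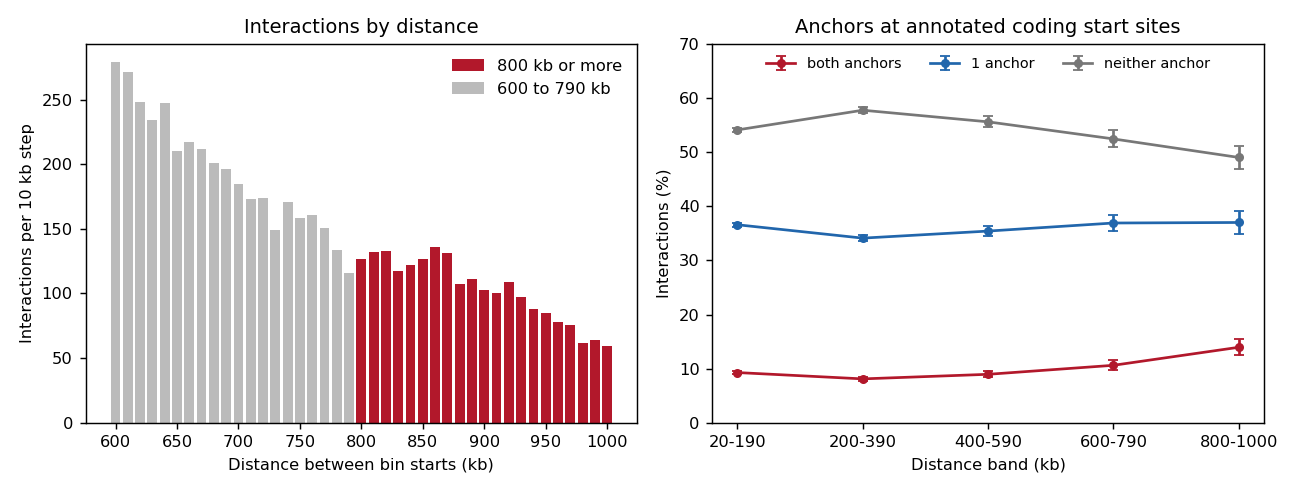
Left, number of listed interactions per 10 kb step of distance from 600 to 1000 kb, with those of 800 kb or more in red; the counts fall from 127 at 800 kb to 59 at 1000 kb. Right, percent of interactions with both, 1 or neither anchor at an annotated coding start in 5 distance bands, with exact 95% intervals as bars; both reached 13.96% in the longest band.

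The anchors with the most very long interactions differed widely in how much of their contact was very long. Among the 15 with the most, the share of their interactions ran from 14.3% at Jun to 92.3% at a Zc3h12a bin. The anchor with the most was chr16:23980001-23990000, at the start of Bcl6, a transcriptional repressor. It had 21 very long interactions, 1 in each of the 21 bins that the list allows from 800 to 1000 kb, all at higher coordinates. It also filled 20 of 20 bins at 600 to 790 kb, 20 of 20 at 400 to 590 kb and 20 of 20 at 200 to 390 kb, but 2 of 18 closer in. From 200 kb on, the stripe ran without a gap and lay over Lpp, a gene of a focal adhesion protein, and 0 of its 21 very long partner bins lay at a coding-gene end.

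Jun, an AP-1 factor, showed a stripe of the same form with a sharp far end. Its anchor at chr4:95050001-95060000 filled all 12 bins from 800 to 910 kb and none beyond. At 600 to 790 kb it filled 20 of 20 bins. Of its 12 very long partner bins, 2 lay at coding-gene ends, those of Fggy and Hook1. Cited2, a co-regulator that binds CBP and p300, had 13 very long partners from 800 to 970 kb, all at lower coordinates, there in runs of at most 4 bins. Its anchor filled 19 of 20 bins in each of the 3 bands from 200 to 790 kb, and no coding gene lay between it and the farthest partner.

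Myc, a growth-promoting transcription factor, reached far on both sides. The anchor chr15:61980001-61990000 had 6 very long partners at lower coordinates, from 820 to 880 kb, and 10 at higher coordinates, from 800 to 980 kb. On the higher side, 19 of 20 bins were filled at 200 to 390 kb and 8 of 20 at 600 to 790 kb, and from 800 kb upward the runs held at most 4 bins. Zeb2, a repressor of the epithelial state and a neural regulator, had 10 very long partners at higher coordinates and 2 at lower ones, at 960 and 970 kb. The 2 lower partners lay far beyond the shorter contacts of that side, of which the farthest was at 560 kb.

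Sox4, a factor of neural progenitors, had its nearer and its very long partners on different sides. Its anchor had 10 very long partners, all at higher coordinates and from 800 to 900 kb, and on that side 0 of 18 bins at 20 to 190 kb and 0 of 20 at 200 to 390 kb. Its partners nearer than 400 kb all lay at lower coordinates. Klf4, a pluripotency and differentiation factor, had 9 very long and 55 shorter interactions at its ends, Plk2, a stress-induced kinase, had 9 and 54, and Nrp1, the semaphorin and VEGF co-receptor, had 9 and 90. The plot of partner bins shows an unbroken run into the very long range at Bcl6 and Jun, gaps just below it at Klf4 and Plk2, and few shorter partners at Pou3f3 and Zc3h12a.

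**Figure D2:**
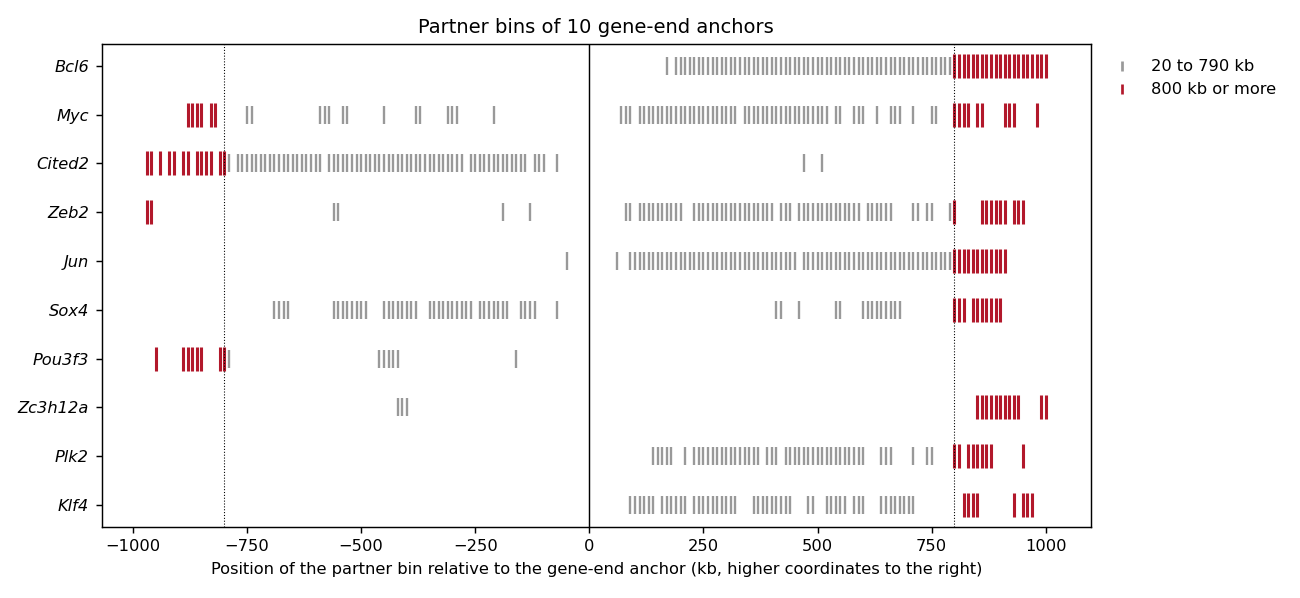
Partner bins of 10 anchors at gene ends; each tick is 1 listed interaction, placed by its distance in kb from the anchor, with higher coordinates to the right and interactions of 800 kb or more in red. Bcl6 fills every bin from 800 to 1000 kb, Cited2 and Pou3f3 have very long partners at lower coordinates alone, and Myc and Zeb2 have them on both sides.

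At other anchors very long interactions outnumbered the shorter ones. Zc3h12a, which encodes a ribonuclease that degrades inflammatory mRNAs, had the most very long interactions of any coding gene, 32, and 4 shorter ones. All 32 lay at higher coordinates, and its 2 leading anchors, chr4:125110001-125120000 and the next bin, filled 0 bins on that side below 800 kb and 12 each above. The partners included ends of Csf3r, the receptor of the granulocyte growth factor (6 interactions), Mrps15, a mitochondrial ribosome protein (6), and Oscp1 (4). Between them lay Grik3, a kainate receptor gene. Meaf6, a subunit of histone acetyltransferase complexes, shares a bin with Zc3h12a and had 12. Csf3r itself had 9 very long interactions and 0 shorter ones.

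Other genes ranged from mostly very long to about even. Mysm1, a histone H2A deubiquitinase, had 13 very long and 3 shorter interactions and lies next to Jun, which its contacts spanned. Pou3f3, a POU factor of the developing cortex, had 14 and 10, all 14 at lower coordinates and spanning no coding gene. Lacc1 and Ccdc122, which share a divergent promoter, had 18 and 15 very long interactions, and the shared bin filled all 11 bins from 800 to 900 kb. Mmadhc, a gene of cobalamin metabolism, had 17 and 19, and 6 of the 17 ended at Rnd3, a small GTPase. The bin chr2:109690001-109700000, at a start of the neurotrophin gene Bdnf, had 13 very long interactions of 17 in all, reaching over Mettl15 and Kif18a at lower coordinates.

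Of 20665 coding genes, 884 had a very long interaction at an end (4.28%), and 391 of these had 1. At annotated starts the count was 644 of 16457 genes (3.91%). For comparison, 65.3% of coding genes had a shorter interaction at an end, and 5.93% of those also had a very long one. Of the 884, 23 had 10 or more very long interactions. For 235 of the 884 (26.6%), very long interactions were at least as many as shorter ones, and 84 had no shorter interaction. Among the 120 genes with at least 5, very long interactions made up 50% or more at 49 genes and less than 25% at 29. Bcl6 (20.8%), Myc (16.3%), Jun (16.7%), Cited2 (15.9%) and Zeb2 (16%) were in the second group, and Zc3h12a (88.9%), Mysm1 (81.3%) and Pou3f3 (58.3%) in the first.

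**Figure D3:**
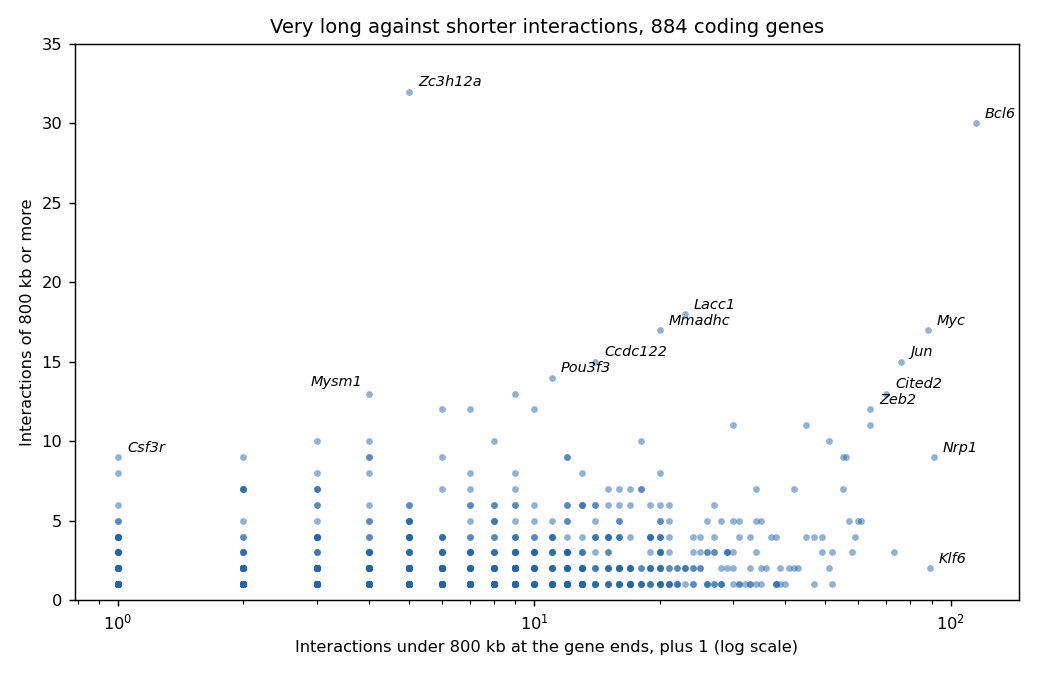
Each point is 1 of 884 coding genes with a very long interaction at an end; the x axis gives shorter interactions plus 1 on a log scale and the y axis the very long ones. Zc3h12a (32 very long, 4 shorter) and Bcl6 (30 and 114) have like counts of very long interactions at opposite ends of the x axis.

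Among the larger contacts, blocks were more common than stripes. Merging interactions that were adjacent, by at most 1 bin, at each anchor gave 893 contacts, of which 382 held 1 interaction and 18 held 10 or more (351 interactions). Of 76 contacts with at least 5 interactions, 46 were blocks, at least 3 bins wide at both anchors. Stripes, at most 2 bins wide at 1 anchor and at least 4 at the other, numbered 24. The largest, with 45, joined 130 kb at Pik3r1, the regulatory subunit of PI3 kinase, to 80 kb that holds Cd180, a Toll-like receptor relative of B cells. It spanned no whole coding gene, and Cd180 had 5 very long interactions and 0 shorter ones. The next joined the Mysm1 and Jun bins to a segment with Fggy and Hook1 (40 interactions). The third joined 50 kb at Zc3h12a and Meaf6 to 110 kb at Csf3r, Mrps15 and Oscp1 (34). Pou3f3 took part in the most densely filled of the 10 largest: 22 of the 25 possible bin pairs between 50 kb at its locus and 50 kb at lower coordinates (88.0%). At 10 of the 22 the anchor lay at an end of Pou3f3.

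Few contacts continued into a shorter one. In all, 51 of the 893 (5.71%), with 214 interactions (9.89%), were linked through adjacent bins to interactions under 800 kb, among them the contacts of Bcl6 and of Jun. At 779 interactions (36.0%), both anchors had another interaction of 200 to 790 kb toward the partner; at 1095 (50.6%) 1 anchor did, and at 290 (13.4%) neither did. An interaction without any adjacent listed interaction was seen 359 times (16.6%), against 14.7% at 600 to 790 kb and 7.98 to 11.4% in the 3 shorter bands.

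Direct contacts between 2 gene ends linked 630 distinct gene pairs, 420 of them by a single interaction. The most were 6, for Mmadhc with Rnd3, Zc3h12a with Csf3r and Zc3h12a with Mrps15. Vdac1, the mitochondrial outer membrane channel, and Hspa4, an Hsp70 family chaperone, were joined by 5 interactions of 870 to 940 kb. Prpf31, a splicing factor, and Ppp1r12c, a regulatory subunit of myosin phosphatase, were also joined by 5, across up to 22 coding genes. Genes that share a bin share these counts. Prpf31 shares bins with Cnot3, Ndufa3 and Tfpt, and Ppp1r12c with Eps8l1, Rdh13 and Tnnt1.

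Very long interactions clustered on the chromosomes. Those with overlapping spans formed 381 loci, of which 98 held a single interaction and 49 together held 50% of all. The 10 largest loci held 414 interactions (19.1%). On chromosome 13, 63 interactions fell between 100830001 and 102750000, around Pik3r1. The next largest were 56 at Bcl6, 44 at Jun and 43 at Zc3h12a. A locus of 40 on chromosome 19 (30760001 to 31770000) lay at Prkg1, the cGMP-dependent kinase. One of 39 on chromosome 2 reached from Acvr2a to Rnd3 over 3980 kb. The last 4 held 34, 33, 31 and 31. The first of them lay at Mocs2 and Itga2, the second at Kif23 and Rplp1 (both with 10 interactions, in shared bins), the third near Klf6 and the fourth at Myc.

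Several of the anchors with the most very long interactions lay away from coding-gene ends. Near Klf6, the bin chr13:4770001-4780000 had 11 very long interactions and no annotated gene end, and 29 of the 31 interactions of the locus lay away from coding-gene ends. Klf6 itself had 2 very long and 88 shorter interactions. On chromosome 13 near Mocs2, the bin from 113870001 to 113880000 had 12, reaching over Ndufs4 and Fst, the gene of the activin antagonist follistatin. A bin at 97310001 on chromosome 10 had 11, all at lower coordinates and across Btg1, an antiproliferative gene. Of 151 anchors with at least 5 very long interactions, 67 lay at a coding-gene end, and 134 had all their very long partners on 1 side. The share at coding-gene ends was above that of all anchors with a very long interaction (37.1%) and of all listed anchors (33.0%).

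Over all 2272 anchors with a very long interaction, 844 (37.1%) lay at a coding-gene end and 646 (28.4%) at an annotated start, against 33.0% and 20.9% of all 56427 anchors in the list. Their median number of shorter interactions was 2, as for all anchors, with an upper quartile of 6 against 4. That comparison is not like for like, since nearly all listed anchors enter through a shorter interaction. Of the 2272, 645 (28.4%) had no shorter interaction. Anchors of the 600 to 790 kb band were close to this: 27.3% had no interaction outside their band, and the median number outside it was 2.

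Chromosomes differed widely in how many of their interactions were very long. Chromosome 13 held 288, 5.47% of its interactions and 2.46 per Mb, and chromosome 4 held 201 (3.49%). At the other end, chromosome 17 held 24 (0.573%), chromosome 11 held 50 (0.758%), chromosome 6 held 44 (0.853%) and chromosome 5 held 52 (0.932%). Leaving the very long interactions of the 10 largest loci out of the numerator alone gave 3.04% for chromosome 13. The whole list gave 1.77% when counted in this way. Across the 19 autosomes, the share fell with coding genes per Mb (Pearson r = -0.43, Spearman rho = -0.54, a description over chromosomes of 1 list). The number of very long interactions per Mb was less closely related to coding genes per Mb (Pearson r = -0.28, Spearman rho = -0.27). Chromosomes 5 and 6 lay low at a middling gene density.

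**Figure D4:**
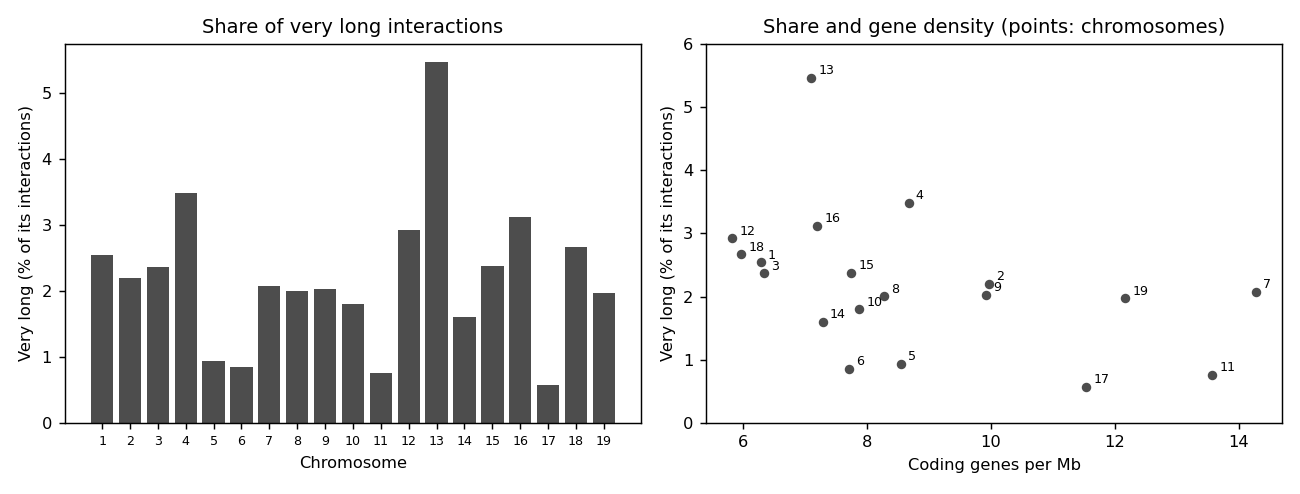
Left, very long interactions as a percent of all listed interactions of each autosome. Right, the same percent against coding genes per Mb, with 1 numbered point per autosome; chromosome 13 stands highest at 5.47% and chromosome 17 lowest at 0.573%.

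Most very long interactions passed over few coding genes. The median number of coding genes wholly between the anchors was 1, with quartiles of 0 and 3. In 730 (33.7%) there was none, against 34.7% at 600 to 790 kb. Genes wholly between the anchors numbered 4.18 per Mb spanned, against 4.42 at 600 to 790 kb and 7.10 at 20 to 190 kb. Genes cut by an anchor are left out, which weighs more on short spans. The autosomes held 8.65 per Mb, but that value counts every coding gene and is not like for like. At the upper end, 112 interactions (5.18%) spanned 20 genes or more, against 3.04% at 600 to 790 kb.

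The interactions that spanned the most genes lay in gene-dense parts of chromosomes 7, 11 and 13. On chromosome 7, a contact of 5 interactions joined Akt1s1, an inhibitor of mTORC1, and Tbc1d17 to Dbp, a clock output factor, and Sphk2, a sphingosine kinase. It passed over as many as 59 coding genes. On chromosome 11, Aurkb, the mitotic kinase, Borcs6 and Per1, a clock gene, were joined to a bin with Dvl2, a Wnt transducer, Gabarap, Phf23 and Ctdnep1 across 53 to 56. Also on chromosome 11, bins at ends of Krt12 and Krt23 and a bin between them were joined to bins without a coding-gene end. These interactions passed over 55 to 57 coding genes, most of them Krt and Krtap genes. On chromosome 13, a contact of 9 interactions, 6 of them at Trim27, reached a segment with histone genes across 39 to 45 coding genes. Of these interactions, 3 ended at H2ac11 and H4c9, genes of core histones.

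Some gene arrays of other tissues lay inside such spans and others did not. Between the anchors of at least 1 very long interaction lay 2132 coding genes (10.3%). Of these, 318 had a very long interaction at an end of their own, against 884 of all 20665 coding genes (4.28%). By symbol, the spanned genes included 45 of 53 numbered Krt genes, the keratins of epithelia (14 interactions), 21 of 21 Lce genes, of the skin barrier (2 interactions), 15 of 15 Taar genes, olfactory trace amine receptors (1 interaction), and 24 of 56 Krtap genes. Other arrays were spanned little or not at all: 22 of 354 Vmn genes, the vomeronasal receptors, 1 of 40 Scgb genes, 0 of 42 Defb and 0 of 28 Defa genes, the defensins, 0 of 28 Serpinb, 0 of 26 Klk and 0 of 22 Mup genes. Olfactory receptor genes (Olfr) were spanned in 132 of 1104, near the share of all coding genes, and 1 had a very long interaction at an end. The families were picked after their counts were seen. Because arrays are contiguous, a single contact can span a whole family. Histone genes were spanned in 22 of 67, and 5 had a very long interaction of their own. Of all spanned genes, 72.0% had an interaction of any length at an end, against 65.0% of the genes not spanned.

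Some very long interactions stayed inside a gene. There were 43 with both anchors in the span of the same coding gene, 31 of them in Prkg1, which is 1201 kb long. Of these genes, Dlg2, a synaptic scaffold, and Ptprd, a receptor phosphatase, had 3 each, and Lrrc4c and Nrg1, the ErbB ligand neuregulin 1, had 2 each. Gpc6 and Nkain2 had 1 each. No interaction joined both ends of a single gene. Of the autosomal coding genes, 91 were at least 810 kb long and could have held such a pair of anchors.

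Genes of developmental transcription factors carried very long interactions far more often than the background of 4.28%. Of 37 scored, 17 had at least 1 (45.9%, exact 95% interval 29.5 to 63.1%). Besides Bcl6 (30 interactions) and Cited2 (13), they included the orphan nuclear receptor gene Nr2f2 (4), the zinc-finger gene Sall3 (4) and Zfp503 (4). Meis2, a homeobox cofactor of neural development, and Ebf1 had 3 each, and Ebf1 had 0 shorter ones. The whole list was drawn up with earlier results of these data known, among them those of Bcl6, Cited2 and Klf6. Of the other 34, 14 (41.2%) had one, which is no independent share either. Median farthest reach over any distance was 240 kb for all coding genes with an interaction. For the 32 factors with one it was 805 kb. That value follows from the count above, since 17 of the 32 reached 800 kb or more, and adds no support to it.

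The developmental factors had few neighbours, with a median of 8 coding genes within 1 Mb, and very long interactions were more frequent at such genes in general. Among coding genes with 0 to 4 neighbours, 12.4% had a very long interaction, and among these 7 of 11 developmental factors did. With 5 to 9 neighbours the values were 9.52% and 5 of 14, and with 10 to 19 they were 7.25% and 5 of 9. The share also differed with the number of shorter interactions, from 1.17% of genes with none to 26.7% of the 116 genes with 40 or more. The part of neighbours and of shorter interactions in the list's count was not tested.

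Neural progenitor genes came next. Of 25, 8 had a very long interaction (32.0%, 14.9 to 53.5%), and all 25 had a shorter one. They were Pou3f3 (14), Zeb2 (12), Sox4 (11), Sox11 (6), the nuclear factor I genes Nfia and Nfib (4 each), Sox2 and Emx2 (3 each). Without Zeb2, Sox4 and Sox2, whose reach was known from earlier results, 5 of 22 remained (22.7%). This list too was drawn up with earlier results known, so that share is not independent of these data. The 25 genes had a median of 11 coding genes within 1 Mb and of 14 shorter interactions. Among all coding genes, 7.25% of those with 10 to 19 neighbours had a very long interaction. Of those with 10 to 19 shorter interactions, 7.86% had one. The part of either in this list's count was not tested.

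Targets of YAP and its DNA-binding partners, the TEAD factors, carried no very long interaction. None of the 22 did (exact upper limit 15.4%, which includes the background), although 21 had a shorter one with a median of 10 per gene. Their farthest partner was at 760 kb, from Fjx1, and the median farthest distance was 280 kb. Ccn1, Ccn2 and Ankrd1 were among those without one. In the Hippo pathway, 2 of 22 had one, the atypical cadherin genes Fat4 (3) and Fat1 (2), and neither Yap1 nor Tead1 did.

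The other lists had shares from 0 to 16.7%, and their exact intervals, wide because the lists are short, all include 4.28%. In the Notch list 2 of 20 had one (10%), Jag1 (3) and Lfng (2). AP-1 and immediate-early factors had 3 of 21 (14.3%, 3.05 to 36.3%), among them Jun (15) and Maf (3). In the cell cycle list Myc (17) was the only one of 20, and Ccnd1 had none. Axon guidance genes had 3 of 25 (12%), Nrp1 (9), Nrp2 and Plxna4 (2 each). Growth factor receptors and ligands had 3 of 24 (12.5%), led by Pdgfra (3), and matrix genes had 2 of 21 (9.52%), Vcan (4) and Col1a2 (1). Among cell type markers, astrocyte genes had 2 of 12 (16.7%, 2.09 to 48.4%, Nfia and Gja1), oligodendrocyte genes 1 of 11 (Pdgfra), neuronal genes 1 of 17 (Stmn2) and endothelial and mural genes 1 of 16 (Foxc1, with 5). Microglia markers (0 of 15), motile cilium genes (0 of 20), broadly expressed genes (0 of 13) and genes of unrelated tissues (0 of 20) had none. Shorter interactions were present at 15 of 15 microglia markers and 13 of 13 broadly expressed genes, and at 30 of 37 developmental factors. Jun, Myc, Nrp1 and Fat1 were known from earlier results of these data and are no independent support for their lists.

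**Figure D5:**
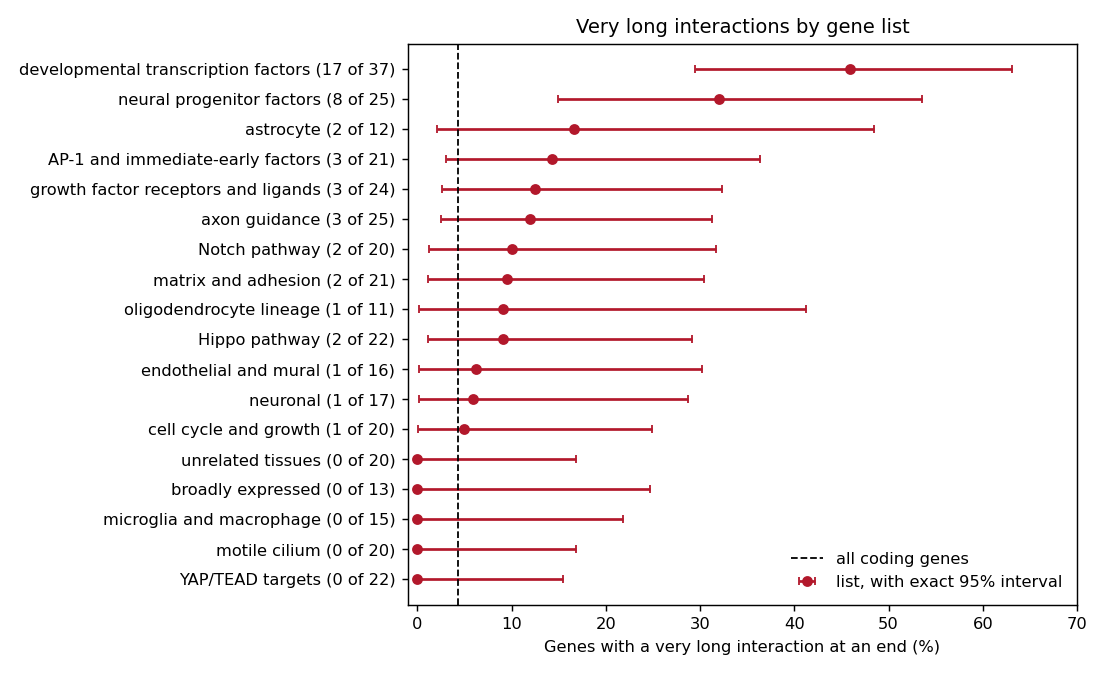
Percent of the scored genes of each list with a very long interaction at an end, with exact 95% intervals; the dashed line marks all coding genes at 4.28%. The intervals of developmental transcription factors (45.9%) and neural progenitor factors (32.0%) lie above the line.

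Where an annotated start lay in the anchor, very long partners were found somewhat more often upstream of it. By strand, 704 of 1230 such partners were upstream (57.2%, 54.4 to 60.02%), against 55.9% at 600 to 790 kb and 51.2 to 52.1% in the 3 shorter bands. Without Bcl6 the share was 56.1%. Counted by gene, 244 had more partners upstream and 230 more downstream. At starts of Bcl6, Jun, Cited2, Sox4, Klf4, Nrp1, Zc3h12a and Pou3f3 all very long partners were upstream, and at Zeb2 11 were upstream and 3 downstream. Plk2 (9 partners), Prkg1 (10), Ppp1r12c (10) and Clcn4 (8), a chloride and proton exchanger, had all of theirs downstream. Several genes described, among them Myc and Mmadhc, had no start in the table and were not counted.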

How the data were processed

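The study measured H3K27ac HiChIP in 4 mouse libraries, 2 of neural stem cells and 2 of YAP-M tumor. Per the submitters' processing notes, reads were handled with BWA on mm10. The caller, its cut-off, peak set and pooling were not given in the sources used here. Per the file header, the authors deposited positions of anchor pairs only. Depth, and so precision, is unknown. Interactions with bin starts at least 800 kb apart were taken and compared with 4 shorter bands of the same list. RefSeq tables of GRCm38.p6 gave gene positions, starts and promoters. Contacts merge interactions within 1 bin at both anchors, and loci join overlapping spans. Gene lists and members were chosen with earlier results of these data known. Named genes are those at the 15 anchors and the 15 genes with the most very long interactions, at the 10 largest loci, the leading 3 of each list, the genes holding both anchors, a short list of YAP, AP-1 and growth genes, and those at the ends of the 10 widest spans by genes. Any other gene named (such as Klf4, Plk2, Vdac1, Hspa4, Prpf31's neighbours, Per1 and Trim27), the gene families and the strata of neighbours and shorter interactions were chosen after their values were seen. The self-test recovered planted contacts and loci on simulated data. Python 3.11.15, pandas 2.3.3 and scipy 1.17.1 were used. Alternatives were other distance limits, gene-end definitions, merging, and leaving out a chromosome or locus. Some genes that the rule takes are not reported here.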

Additional observations from a re-analysis of the deposited data

How the results depend on the processing

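No paired analysis was possible because no column belongs to a library. For the same reason no replicate could be left out and the stem cells were not compared. Of 116 alternative values, 75 stayed within the interval of the main value, or within 1.5 times of it for a count, and 41 moved. A minimum of 700 kb gave 3736 interactions (3.77% of the list), 1569 contacts, 1370 genes and 15.6% in the 10 largest loci. A minimum of 900 kb gave 921 (0.930%), 427, 451 and 21.7%, with at most 11 at an anchor and 21.6% of developmental transcription factors. Merging gave 893 contacts, at most 6 at an anchor, 12.99% in the 10 largest loci, 31.6% spanning no coding gene, and classes of both, 1 and no anchor at a gene end of 30.9%, 38.97% and 30.1%. These 3 classes were 33.0%, 47.0% and 20.0% for all annotated genes (1440 genes), 5.41%, 33.5% and 61.1% by bin midpoint (484 genes), and 13.96%, 37.0% and 49.0% for annotated starts. The classes with both and with no anchor were 14.6% and 43.1% with a window of 0 kb, 23.2% and 33.3% with 5 kb, and 39.4% and 18.2% for the whole gene span. By bin midpoint, 24.3% of developmental transcription factors had a very long interaction. The count over all 20665 coding genes fell as well, from 884 to 451 with the minimum of 900 kb and to 484 by bin midpoint. Counting any overlap with the interval gave a median of 2 coding genes spanned, and 13.7% with none. Without chromosome 13 the share of the list was 2.00% and the class with no anchor at a gene end 34.2%. The YAP/TEAD list stayed at 0 under each alternative but the minimum of 700 kb (4.55%). Depth is unknown, so a gene without a very long interaction was not detected as having one, rather than shown to have none.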
